A study of Bos taurus with 4 samples.

Results

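The 14-3-3 family in sperm RNA of Murrah buffalo bulls was represented on a bovine expression array by 7 genes and 18 of the 51282 probes. A probe was taken as a family member when the array's own annotation named its gene as YWHAB, YWHAQ, YWHAZ, YWHAE, YWHAH, YWHAG or SFN. These genes encode the beta, theta, zeta, epsilon, eta, gamma and sigma proteins. The array carried 2 probes for YWHAB, 4 for YWHAQ, 2 for YWHAZ, 4 for YWHAE, 3 for YWHAH, 1 for YWHAG and 2 for SFN. Sperm of breeding bulls rated as high-fertile or low-fertile by conception rate was selected on Percoll, a density medium, and its RNA was pooled from 2 bulls at a time. The 2 high-fertile pools and 2 low-fertile pools were each hybridized to 1 array with a single dye, and no age was given for the bulls. Since no source used here ties a bull to a pool, pools and not bulls are the replicates. All 4 arrays lay on 1 slide and were read in 1 scan, and since each fertility group filled its own row of that slide, row and group cannot be told apart.

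The 14-3-3 proteins are small adaptors that work as dimers and bind other proteins, their clients, at phosphorylated serine or threonine. Binding can hold a client in the cytoplasm, hide a surface or keep an enzyme in 1 shape. In sperm, where transcription has ceased, they are known as partners of phosphorylated signalling proteins, such as the glycogen synthase kinase GSK3 and a protein phosphatase 1 isoform. The RNA of mature sperm is largely left over from sperm formation in the testis. The sigma gene SFN differs from the other members in that it is best known as an epithelial gene induced by p53.

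The probes are 60 bases long and each is identified here by its gene and by the base of its transcript at which it starts. A pair of probes shows how close the coding sequences of 2 members can be. The SFN probe at base 695 (chr2:130573897-130573956, minus strand, build Btau_3.1) and the YWHAE probe at base 738 (chr19:22610709-22610768, minus strand) match at 34 of 44 aligned bases, or 77.3%. Capitals mark the bases that are identical in both, 5′ to 3′ as the array lists them.
SFN 695: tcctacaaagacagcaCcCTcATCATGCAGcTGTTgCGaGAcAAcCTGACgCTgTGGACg
YWHAE 738: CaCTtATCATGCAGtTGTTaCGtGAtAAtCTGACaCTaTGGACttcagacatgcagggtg
No probe of another gene on the array shared an exact stretch of 20 bases with any of the 18 probes. The other SFN probe, at base 1206 (chr2:130573386-130573445, minus strand), holds 2 stretches of 19 bases in which T and G alternate, and its first 30 bases are given with the first of them in capitals.
SFN 1206: atgaaaGTGTGTGTGTGTGTGTGTGcctgt
Within YWHAQ, the probes at bases 1805 (chr11:90668374-90668433, plus strand) and 1809 (chr11:90668378-90668438, plus strand) share 47 bases. Their last 30 bases are given with the end of the shared stretch in capitals, and the bases in lower case follow it.
YWHAQ 1805: AATGTTATGCCCTATGTAACAgcagagtaa
YWHAQ 1809: TTATGCCCTATGTAACAcagaataacataa
The single YWHAG probe (chr25:36523440-36523499, minus strand) is given whole, since this gene rests on it alone.
YWHAG 518: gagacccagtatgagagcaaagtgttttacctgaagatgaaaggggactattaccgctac

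The scanner software marks a spot as well above background when it clears the background by a set margin. Over the 4 arrays, this mark was on 23271 probes for high-fertile pool 1, 23228 for high-fertile pool 2, 25642 for low-fertile pool 1 and 13033 for low-fertile pool 2. Of the 18 family probes it was on 9 and 10 for the high-fertile pools and on 9 and 5 for the low-fertile pools, so low-fertile pool 2 had the lowest number both over the whole array and within the family. The mark does not fall at the same signal on each array. A YWHAZ signal of 36.2 lacked it in low-fertile pool 2, while a YWHAQ signal of 22.3 carried it in low-fertile pool 1. A missing mark in low-fertile pool 2 thus does not by itself show a dimmer signal. Processed signals below are background-subtracted intensities in the scanner's units, and normalized values are their log2 minus the 75th percentile of the array, which lay at signals of 36.7, 37.1, 37.0 and 32.7. A difference is the mean normalized value of the low-fertile pools minus that of the high-fertile pools, in log2 units. It was tested in limma over the 21033 probes that carried the mark in both pools of either group, with Benjamini-Hochberg adjustment over all of them. The sample is bulk RNA, in which fewer cells of a type and less RNA per cell cannot be told apart. With 2 pools a side, precision is limited by the small number of arrays.

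**Figure D1:**
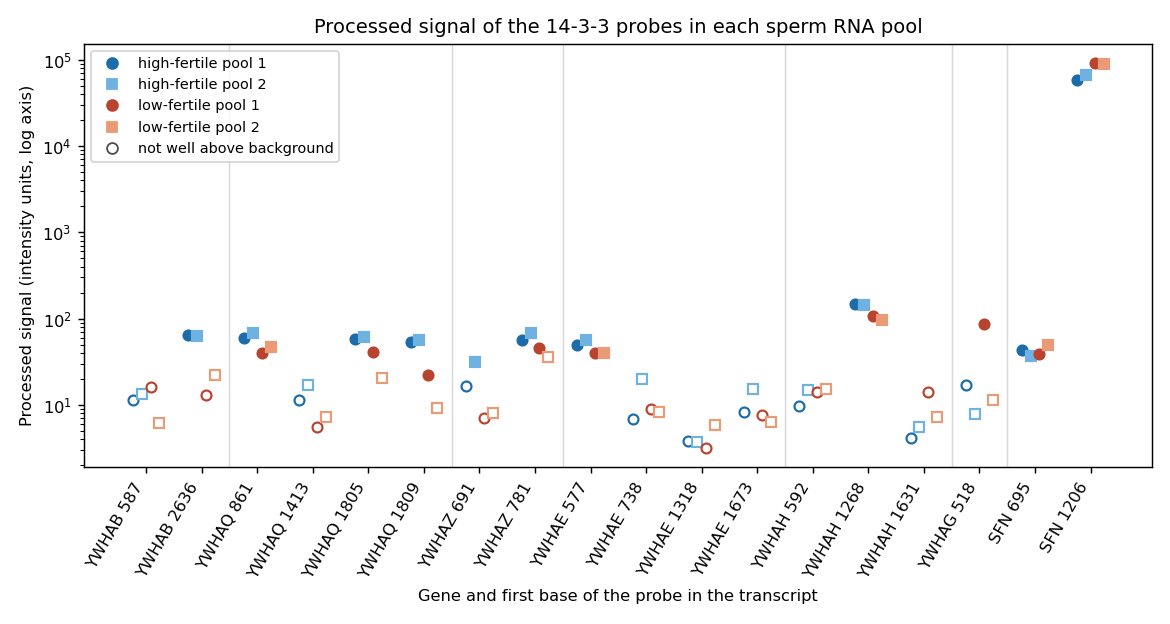
Processed signal (intensity units, log axis) of each of the 18 probes, named by gene and first base, in the 2 high-fertile pools (blue) and the 2 low-fertile pools (red); open symbols were not well above background. All points lie below 150 units except those of the SFN probe at base 1206, which lies between 58651 and 91246.

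Across the family, 9 probes of 6 genes were bright enough to be tested. Each of the 7 tested probes of the YWHA genes was lower in the low-fertile pools, and both tested probes of SFN were higher. The difference passed an adjusted p of 0.05 for 3 of the 9 in limma, where 26.8% of all tested probes did. Those lower were a YWHAB probe and a YWHAQ probe (2 of 9, against 17.6% of all tested probes), and the bright SFN probe was higher (1 of 9, against 9.22%). The pools of the 2 groups did not overlap for 8 of the 9 probes, where this held for 69.1% of all tested probes. Of these 8, 7 were lower (35.5% of all tested probes) and 1 was higher (33.6%). The median difference of the 9 probes was -0.47, beside -0.0047 over all tested probes. Of the 9, 4 entered the test through the high-fertile pools alone, both lower calls among them, and entry in this way favours probes that are dimmer in the low-fertile pools. Among all 8145 probes that entered so, 30.1% were called lower, so the counts over the family are a description only. Of the 5 family probes that carried the mark on all 4 arrays, the same fit called 0 lower (1, of YWHAH, at an unadjusted p under 0.05) and 1 higher, against 9.89% and 13.2% of the 12552 such probes on the array. With limma refitted on those 12552 probes alone, the YWHAH probe was called lower as well (adjusted p = 0.0322).

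**Figure D2:**
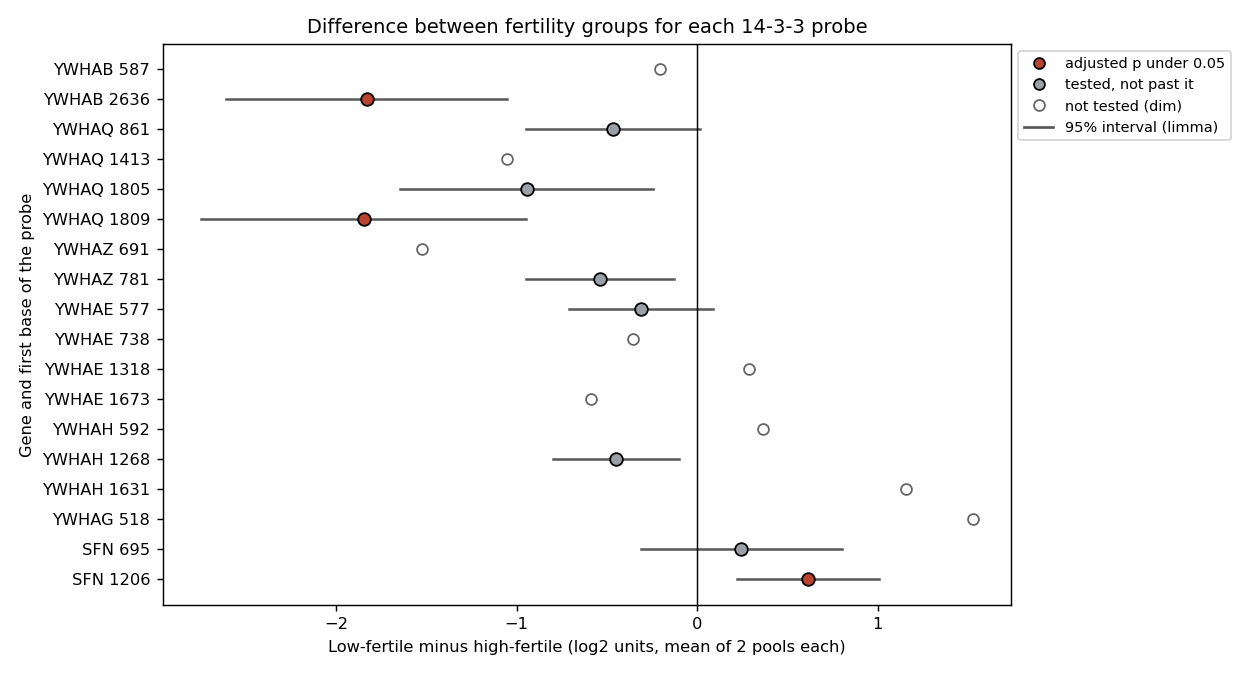
Low-fertile minus high-fertile difference (log2 units) of each 14-3-3 probe, with the 95% interval of limma for the 9 that were tested; red points passed an adjusted p of 0.05, grey points did not and open points were too dim to test. The YWHAB probe at base 2636 and the YWHAQ probe at base 1809 lie near -1.8, and the tested YWHA probes all lie below 0.

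YWHAB, the beta gene, had the lowest adjusted p of the family. Its probe at base 2636 (A_73_P047661, chr13:74083627-74083686, plus strand) had processed signals of 65.1 and 63.6 in the high-fertile pools against 13.2 and 22.0 in the low-fertile pools. It was well above background in both high-fertile pools and in neither low-fertile pool. It thus entered the test through the high-fertile pools alone, which favours a lower value. Of all probes that entered so, 30.1% were called lower. The normalized values were 0.83 and 0.78 against -1.49 and -0.57, with the high-fertile pools close together and the low-fertile pools well apart from each other. By the mean normalized values, the signal at this probe was 3.56-fold higher in the high-fertile pools, which rests on low-fertile signals not well above background. The difference was -1.83 (SE 0.311, 95% interval -2.61 to -1.05, limma adjusted p = 0.0118). The other YWHAB probe, at base 587 (A_73_P100986), spans 1173 bases of the genome and so crosses from 1 exon into another. It stayed below that mark on all arrays, at signals of 11.4, 13.3, 16.3 and 6.24, and gives no second reading of the gene. Without high-fertile pool 1 or 2 the difference at base 2636 was -1.81 and -1.86. Such a fit takes its spread from the low-fertile pools alone, so its p is not given.

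YWHAQ, the theta gene, was read by 4 probes, of which 3 were tested and all 3 were lower in the low-fertile pools without overlap. The probe at base 1809 (A_73_P343186) had signals of 53.2 and 55.9 in the high-fertile pools against 22.3 and 9.15 in the low-fertile pools, the last of which was not well above background. Its normalized values were 0.54 and 0.59 against -0.73 and -1.84, and it fell by 1.85 (SE 0.359, 95% interval -2.75 to -0.95, limma adjusted p = 0.0177). It entered the test through the high-fertile pools alone, which favours a lower value. The probe at base 1805 (A_73_105468), which overlaps it, had signals of 57.3 and 61.7 against 41.0 and 20.7, again not well above background in low-fertile pool 2. Its difference was -0.95 (SE 0.280, 95% interval -1.65 to -0.25, limma adjusted p = 0.0583). The probe at base 861 (A_73_P105586, chr11:90667430-90667489, plus strand) was well above background on all 4 arrays, at signals of 59.6 and 67.2 against 39.7 and 46.9. Its difference was -0.47 (SE 0.194, 95% interval -0.95 to 0.02, limma adjusted p = 0.130). The fourth, at base 1413 (A_73_P203532), carried the mark on no array, at 11.4, 17.2, 5.60 and 7.18.

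The 3 tested probes are readings of 1 gene, and those at bases 1805 and 1809 share most of their sequence, so they are not separate evidence. Without high-fertile pool 1 or 2, the difference at base 1809 was -1.88 and -1.82. A fit that leaves 1 pool in a group takes its spread from the other group alone, so its p is not given. After correction for probe GC content the difference at base 1809 was -2.10 (limma adjusted p = 0.131). At base 1805 the difference was -1.35 without low-fertile pool 1 and -0.54 without low-fertile pool 2. At base 861 it was -0.26 without low-fertile pool 1.

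YWHAZ, the zeta gene, is in common use as a reference gene for PCR. Its probe at base 781 (A_73_P039476, chr14:61648126-61648185, plus strand) had signals of 56.5 and 68.4 in the high-fertile pools against 45.1 and 36.2 in the low-fertile pools, the last of which was not well above background. The normalized values were 0.62 and 0.88 against 0.28 and 0.15, so the groups did not overlap. The difference was -0.54 (SE 0.164, 95% interval -0.95 to -0.13, limma adjusted p = 0.0632). The other probe named YWHAZ (A_73_P204447, at base 691), designed to an expressed sequence tag and not to the reference transcript, was well above background in high-fertile pool 2 alone. Its signals were 16.5 and 31.8 against 6.96 and 8.06, and its difference of -1.53 was not tested.

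YWHAE, the epsilon gene, whose protein is highly conserved, was detected through 1 of its 4 probes. The probe at base 577 (A_73_P350681, chr19:22612850-22612909, minus strand) was well above background on all 4 arrays, at signals of 48.8 and 57.1 in the high-fertile pools against 40.3 and 39.8 in the low-fertile pools. The normalized values were 0.41 and 0.62 against 0.12 and 0.29, close but without overlap. The difference was -0.31 (SE 0.160, 95% interval -0.71 to 0.09, limma adjusted p = 0.201), and -0.21 without high-fertile pool 2. The YWHAE probes at bases 738, 1318 and 1673 were not well above background on any array. Their signals ran from 3.17 to 19.8, and their untested differences were -0.36, 0.29 and -0.59.

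YWHAH, the eta gene, was read above background by its probe at base 1268 (A_73_P280611, chr17:73882034-73882094, plus strand). The signals were 149 and 146 in the high-fertile pools against 108 and 96.2 in the low-fertile pools, all well above background. The normalized values were 2.03 and 1.97 against 1.55 and 1.56, close within both groups and without overlap. The difference was -0.45 (SE 0.140, 95% interval -0.80 to -0.10, limma adjusted p = 0.0662). It passed an adjusted p of 0.05 under 5 of 18 alternatives, over which the adjusted p ranged from 0.0127 to 0.362. The YWHAH probes at bases 592 and 1631 were not well above background on any array and were not tested. At base 592 the signals were 9.74, 14.7, 13.9 and 15.1, and at base 1631 they were 4.17, 5.55, 14.3 and 7.16. Their differences were 0.36 and 1.16, the second without overlap between the groups.

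YWHAG, the gamma gene, was not tested, since its single probe (A_73_P032301, at base 518) was well above background in low-fertile pool 1 alone. The signals were 16.9 and 7.94 in the high-fertile pools against 86.0 and 11.5 in the low-fertile pools, so 1 pool stood apart and its own group partner did not, and the difference was 1.52. On that array, 3 of the 6 nearest spots were also off by over 2 log2 units from their level on the other arrays, and the part of this in the value was not tested. The other arrays showed YWHAG at the level of probes not well above background. Over the 9 untested probes of the family, 5 had a difference below 0 and 4 above it.

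SFN, the sigma gene, went the other way from the 7 tested YWHA probes at the probe at base 1206 (A_73_112799). Its processed signals were 58651 and 67319 in the high-fertile pools against 91246 and 90009 in the low-fertile pools, and it ranked 27 among all 51282 probes on the array of high-fertile pool 1. The normalized values were 10.64 and 10.82 against 11.27 and 11.43, without overlap. The signal was 1.53-fold higher in the low-fertile pools, a difference of 0.61 (SE 0.157, 95% interval 0.22 to 1.01, limma adjusted p = 0.0392). The SFN probe at base 695 (A_73_P259301), designed to the same transcript, had signals of 42.9 and 36.6 in the high-fertile pools against 39.2 and 49.8 in the low-fertile pools. These overlapped between groups, and the difference was 0.24 (SE 0.223, 95% interval -0.31 to 0.80, limma adjusted p = 0.448), which turned to -0.019 without low-fertile pool 2. It was -0.14 with spike-in normalization and -0.17 with GC correction, both above the median of all tested probes there (-0.39 and -0.22). At base 1206 the difference ran from 0.52 to 0.71 with any 1 pool left out, in fits whose spread comes from the other group alone. The call there was kept under 8 of 18 alternatives. The difference was 0.24 with quantile normalization (limma adjusted p = 0.186), 0.23 with spike-in normalization (adjusted p = 0.275), 0.32 with GC correction (adjusted p = 0.260) and 0.55 with cyclic loess (adjusted p = 0.0574).

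The very bright SFN probe is the one with the alternating T and G shown above. This was looked up after its signal was seen. Over the whole array, 9 probes (0.0176%) hold at least 16 bases in which T and G alternate, TGTGTGTGTGTGTGTG or the same run begun with G. All 9 were bright on every array, with signals from 4010 to 91246, where the median probe lay at 16.4, 16.6, 16.6 and 12.1. Among their genes were the receptor gene S1PR2, the kinase genes EPHB3 and TYK2 and the centrin gene CETN2. The 5 probes with the run on the opposite strand had signals from 6.02 to 1496. The median of the probes' geometric mean signals rose with the length of the longest run: it was 14.8 for the 49438 probes with a run under 6 bases, 15.1 for the 1572 with 6 to 7, 43.0 for the 235 with 8 to 11, 1291 for the 28 with 12 to 15, and 41110 for the 9 with 16 or more. All 9 were also higher in the low-fertile pools, by 0.12 to 0.81 with a median of 0.61, and 6 of them passed the adjusted p of 0.05 in limma, against 9.22% of all tested probes. Of the 28 with 12 to 15 bases, 24 were higher and 7 passed the test as higher, with a median difference of 0.29. Whether the SFN signal at base 1206 comes from SFN RNA was not tested, and the SFN probe without such a run did not separate the groups.

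**Figure D3:**
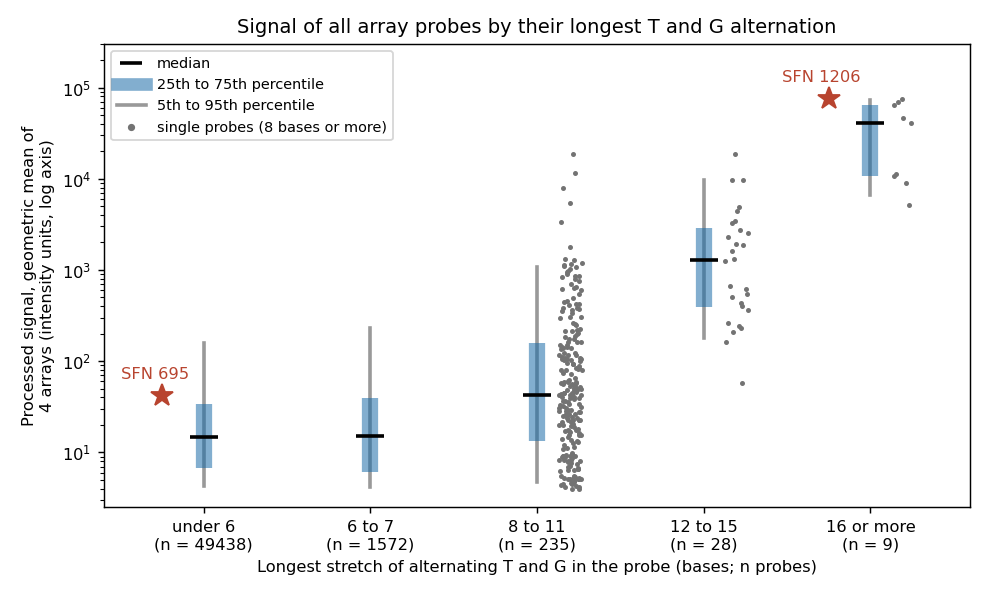
Processed signal (geometric mean over the 4 arrays, intensity units, log axis) of all 51282 probes by the longest stretch of alternating T and G in the probe; black bars are medians, blue boxes the 25th to 75th percentiles, grey lines the 5th to 95th percentiles, dots single probes and red stars the 2 SFN probes. The median rises from 14.8 under 6 bases to 41110 at 16 or more, where the SFN probe at base 1206 lies.

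The genes whose brightest tested probe had the pattern over the 4 arrays most like SFN at base 1206 were CEND1, MYT1 and PFDN1. The measure was the root-mean-square distance of the centred normalized values, over 9800 gene symbols. CEND1, a neuronal cell cycle exit gene, lay at a distance of 0.0125 with values of -0.30, -0.11, 0.36 and 0.49. MYT1, a zinc finger factor gene, lay at 0.0143 with 0.66, 0.81, 1.26 and 1.43. PFDN1, a prefoldin chaperone subunit gene, lay at 0.0160 with -0.15, 0.07, 0.51 and 0.66. With 4 arrays in 2 groups, such likeness describes little beyond the difference between the groups.

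Processing moved the sizes of the tested YWHA differences. Under the alternatives in normalization, background, filter, model and pools left out, all 122 values of these 7 probes stayed below 0. For many of these values the sign could not turn. A change of filter or model leaves the difference as it was, and with groups that do not overlap, leaving out a pool keeps its sign. The YWHAB probe at base 2636 ranged from -2.29 to -0.49 and the YWHAQ probe at base 1809 from -2.40 to -0.56. Both values nearest 0 came with normexp background correction, which adds a constant to every signal. The YWHAE probe at base 577 came nearest to 0 of all, at -0.062. SFN at base 1206, where the groups also did not overlap, ranged from 0.23 to 0.71, always higher. Some settings moved the median of all tested probes, to -0.39 with spike-in normalization and -0.22 with GC correction. The YWHAE probe, at -0.70 and -0.15 under them, was below the first median and above the second, and the YWHAH probe, at -0.84 and -0.31, was below both.

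**Figure D4:**
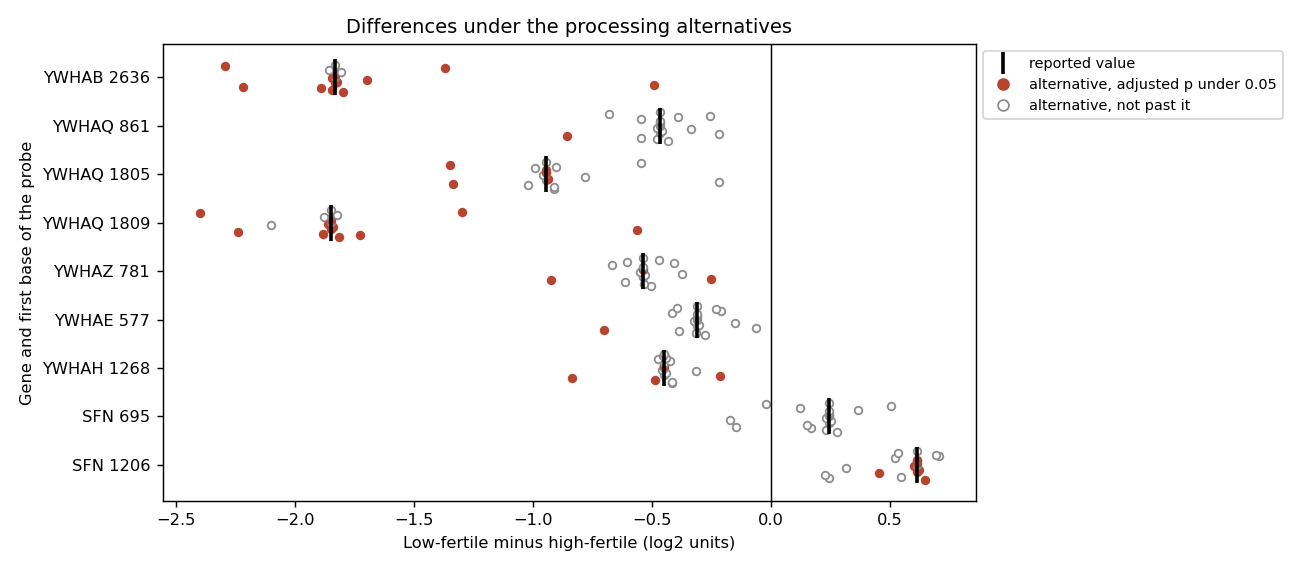
Low-fertile minus high-fertile difference (log2 units) of the 9 tested probes as reported (black bars) and under each processing alternative (points, red where the adjusted p was under 0.05). The YWHA points all lie below 0, those of SFN at base 1206 all lie above it, and those of SFN at base 695 lie on both sides.

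Genes that work with the family were read from a list of 36 client proteins and 24 kinases that write 14-3-3 binding sites or sperm enzymes tied to the family. Each gene was read by its brightest tested probe. Of 20 tested clients, 2 passed the test, both higher in the low-fertile pools, and the median difference was 0.10. Of all genes read in the same way, 9.50% were called higher and 26.2% in either direction. AKT1S1, a client that restrains the kinase complex mTORC1 until it is phosphorylated, had normalized values of 3.81 and 3.88 in the high-fertile pools against 5.08 and 5.25 in the low-fertile pools. It rose by 1.32 (SE 0.149, limma adjusted p = 0.00407). IRS1, an adaptor of the insulin receptor, had 1.88 and 1.74 against 2.51 and 2.52 and rose by 0.70 (SE 0.145, limma adjusted p = 0.0212). The other 18 tested clients, which include BAD, CDC25B, FOXO1 and FOXO3, did not pass the test.

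Among 16 tested kinases and enzymes, 2 passed the test as lower and 3 as higher, with a median difference of -0.12. Of all genes read by their brightest tested probe, 16.7% were called lower and 9.50% higher. PIM1, a serine and threonine kinase that phosphorylates BAD, had normalized values of 1.17 and 1.39 in the high-fertile pools against -0.33 and -0.95 in the low-fertile pools. It fell by 1.92 (SE 0.241, limma adjusted p = 0.00524). GSK3B, a kinase of glycogen and Wnt signalling, had 0.64 and 0.50 against -0.36 and -0.48 and fell by 1.00 (SE 0.149, limma adjusted p = 0.00826). Both were well above background in low-fertile pool 1 but not in low-fertile pool 2, and so entered the test through the high-fertile pools alone, which favours a lower value, as 30.1% of all probes that entered so were called lower. PRKAA2, a catalytic subunit of the energy sensor AMPK, had 0.23 and -0.10 against 1.09 and 1.13 and rose by 1.05 (SE 0.172, limma adjusted p = 0.0107). AKT2 rose by 0.62 (SE 0.169, limma adjusted p = 0.0478) and RPS6KA1 by 0.55 (SE 0.148, limma adjusted p = 0.0447). AKT1, the other GSK3 gene GSK3A and the protein kinase A subunit PRKACA did not pass the test. Clients and kinases together gave 7 calls among 36 tested genes (19.4%), 2 lower and 5 higher. Over all genes 26.2% were called in either direction, 16.7% lower and 9.50% higher. Among the 21 of these genes read by probes well above background in every pool, the same limma fit called 0 lower and 5 higher. Of the 12552 such probes on the array, 9.89% were called lower and 13.2% higher. In either direction, 6 of the 21 had an unadjusted p under 0.05 in that fit. The median difference of the 36 genes was 0.07, beside 0.01 over all genes.

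YWHAZ was also set beside 10 other genes in common use as PCR references, of which 8 were tested. RPL13A, a ribosomal protein gene, had normalized values of 2.85 and 2.78 in the high-fertile pools against 1.77 and 1.92 in the low-fertile pools and fell by 0.97 (SE 0.147, limma adjusted p = 0.00848). GAPDH, a glycolytic enzyme gene, had 2.23 and 2.15 against 1.49 and 1.43 and fell by 0.73 (SE 0.142, limma adjusted p = 0.0178). These were 2 of 8, against 16.7% of all genes called lower. The other 6, among them ACTB, B2M and TBP, did not pass the test, and the median difference of the 8 was -0.11.

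**Figure D5:**
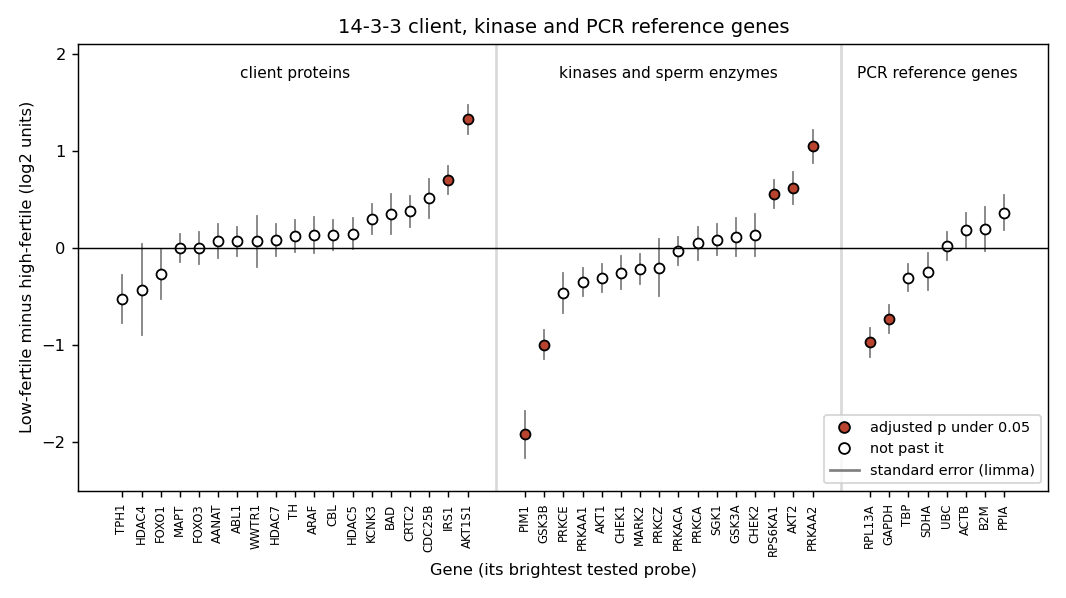
Low-fertile minus high-fertile difference (log2 units) of the tested client, kinase and PCR reference genes (1 client is not drawn), each by its brightest probe, with the standard error of limma; red points passed an adjusted p of 0.05. AKT1S1 at 1.32 and PIM1 at -1.92 lie farthest from 0.

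The label of the samples was set against marker genes of sperm and of other cells, each read by its brightest tested probe. Over all 16537 genes read so, 9.50% were called higher and 8387 were higher in the low-fertile pools. Of 15 sperm markers, 6 were tested and AKAP4, SMCP, CRISP2, LDHC and PGK2 carried the background mark on no array. The protamine gene PRM1 rose by 0.67 (SE 0.143, limma adjusted p = 0.0231) and was the 1 of the 6 that passed the test. Of the 6, 3 were higher and 3 lower, with a median difference of -0.0061, and the summed signal of the sperm markers was 963 and 832 in the high-fertile pools against 807 and 773 in the low-fertile pools. Of 10 leukocyte markers, 9 were tested, all 9 were higher in the low-fertile pools with a median difference of 0.40, and 1 passed the test. Their summed signal was 21560 and 20615 against 28854 and 28003, nearly all of it from LYZ and PTPRC, and the sum of the others was 996 and 1065 against 1118 and 993. The T cell marker CD3E carried the background mark on no array, and the brightest probe of the 1 called, PTPRC, holds an alternation of T and G of 22 bases. Of 10 epithelial markers, 8 were tested, 7 were higher and 1, CLDN7, rose by 0.80 (SE 0.142, limma adjusted p = 0.0133), with summed signals of 1152 and 1196 against 1284 and 1257. The defining epithelial genes EPCAM and CDH1 were not well above background on any array. Of 7 red cell markers on the array, 5 were tested, 3 were higher and 2 lower with a median difference of 0.07, and 1 passed the test, with summed signals of 343 and 483 against 409 and 430. The 1 called, HBB, rose by 1.24 (SE 0.210, limma adjusted p = 0.0118) but entered the test through the low-fertile pools alone, which favours a higher value. The other globin gene, HBA, had a difference of -0.17. None of 8 markers of earlier germ cells on the array was bright enough to test, and 7 of them carried the background mark on no array. The part of other cells in the differences of the 14-3-3 genes was not tested.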

How the data were processed

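Sperm RNA of 2 high-fertile and 2 low-fertile pools was hybridized to 4 arrays. Per the file headers, the authors extracted intensity values with Agilent Feature Extraction 11.5.1.1, which subtracts the background and writes a surrogate value where a spot is not above it. The table of values holds deposited log2 signals that the authors shifted by the 75th percentile in GeneSpring GX 12.6, and member values recomputed here differed from it by at most 0.031. Outlier spots were dropped and the remaining log2 spots averaged per probe. A mark counted for a probe if a share of 0.5 or more of its spots had it. The comparison was made in limma 3.58.1 under R 4.3.3, on 21033 probes, and run on data simulated from its own fitted spread. Such data hold no pool effects and no filter on dim probes, so they cannot check how these bear on the calls. Tables were handled in Python 3.11.15 with pandas 2.3.3, numpy 2.4.6 and scipy 1.17.1. Coordinates are those of Btau_3.1 in the files. All member probes were named. Of the clients and kinases, and of the reference genes, those named with values are up to 3 with the largest difference in each direction past an adjusted p of 0.05. The members and lists were chosen with earlier results of these data known. The replicate numbers did not pair the pools (r = 0.0055 across 21024 probes). Single values of 2 listed genes are not reported here.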

Additional observations from a re-analysis of the deposited data

How the results depend on the processing

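Of 158 values of single tested probes under the alternatives, 121 kept their direction and their side of an adjusted p of 0.05, 15 newly passed it, 19 no longer did and 3 turned direction. The 3 that turned were all of SFN at base 695 (0.24 as reported), at -0.14 with spike-in normalization and -0.17 with GC correction, which moved the median of all tested probes to -0.39 and -0.22, and -0.019 without low-fertile pool 2, where leaving out low-fertile pool 1 gave 0.51. The 3 calls among the 14-3-3 probes became 7 with spike-in normalization, 5 with normexp background correction, 6 with an intensity trend and 1 with GC correction. Calls over all probes (5632) became 2886 with GC correction, and those among client and kinase genes 4 (7 as reported). With no filter on dim probes there were 0 calls over all probes, the 14-3-3 probes, the client and kinase genes and the reference genes, where an unadjusted p under 0.05 was met by 9278 probes in all. The methods' t-test likewise gave 0 calls in each set after adjustment, and 6084 probes at an unadjusted p under 0.05. At an unadjusted p under 0.05 and a log2 difference over 1, it called 2277 probes, 0 of the 14-3-3 probes, 3 client and kinase genes and 0 reference genes. With the median over the probes of a gene, 1 reference gene was called (2 as reported). Leaving out 1 pool at a time gave 2640 to 4989 calls over all probes, 0 to 3 of 14-3-3 probes, 3 to 5 of client and kinase genes and 0 to 2 of reference genes, with 0 calls of 14-3-3 probes without high-fertile pool 1 or without high-fertile pool 2. With the replicate number as a block, 5331 probes, 4 of the 14-3-3 probes, 5 client and kinase genes and 2 reference genes were called. The share of calls that were lower was 65.6% as reported, 92.7% with spike-in normalization, 86.0% with GC correction and 37.5% with limma refitted on the 12552 probes that cleared the background on all arrays. The cause of these changes was not tested. Signal over background limits the family: 7 of its 18 probes were not well above background on any array, and a low signal there does not show that the RNA was absent.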

Other observations

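The array also carried 2 probes for loci that its annotation describes as resembling 14-3-3 genes without giving them a member's symbol, so they are not counted above. The probe for the zeta-like locus LOC100140254 was well above background on all 4 arrays, at processed signals of 49.1 for high-fertile pool 1, 42.4 for high-fertile pool 2, 73.9 for low-fertile pool 1 and 72.3 for low-fertile pool 2. It was higher in the low-fertile pools by 0.77 on the log2 scale (limma adjusted p = 0.0224), where the YWHAZ probe at base 781 had a difference of -0.54. The probe for the theta-like locus LOC617498 had signals of 19.7 and 22.0 against 33.3 and 25.6 and was not well above background in high-fertile pool 1. Its difference was 0.57 (limma adjusted p = 0.0475), but it entered the test through the low-fertile pools alone, which favours a higher value there. Both loci were named after their values were seen, and whether these probes also bind YWHAZ or YWHAQ RNA was not tested.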
